A study of Saccharomyces cerevisiae with 8 samples.

Results

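The genes for the proteins of the large (60S) ribosomal subunit were examined in Rap1 ChIP-seq peak lists from young and chronologically aged Saccharomyces cerevisiae cultures. They were chosen by name among the nuclear protein-coding genes of release 64 of the reference genome, as all genes named RPL with a number and an optional A or B, together with RPP0, RPP1A, RPP1B, RPP2A and RPP2B. This gave 81 of 6002 genes, of which 70 form 35 pairs of A and B paralogs and 11 are single genes. For each gene, the peaks that overlapped the 500 bp before the start codon were taken as promoter peaks. Chromatin was precipitated with an antibody to Rap1 from cultures grown in YPD at 30 °C for 14 d or for 16 h, with 2 biological repeats of each, and peaks were called relative to an input library of the same culture. The 4 peak lists were analysed, and the 4 inputs played no part beyond that calling.

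All cultures were of strain JDY86, so that 14 d and 16 h share 1 genotype. According to the methods of the study it is MATa and carries his3Δ200, leu2Δ0, K2Δ0, trp1Δ63, ura3Δ0, met15Δ0 and can1::MFA1pr-HIS3. Its native histone H3 and H4 gene pairs are replaced, by NatMX4 at hht1-hhf1 and by a synthetic histone cassette with URA3 at hht2-hhf2, so that histones H3 and H4 come from the cassette alone. The labels name the strain without giving the histone allele. The methods describe ChIP on bulk cells, without a separation of quiescent from non-quiescent cells.

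The 60S subunit is built from ribosomal RNA and one set of proteins, whose genes are among the most transcribed of a growing yeast cell. Rap1 binds upstream of most of these genes and recruits the activators Fhl1 and Ifh1, helped at many of them by Hmo1 and Sfp1, and transcription of the genes falls when nutrients run out. A minority, among them RPL3, RPL4A and RPL4B, is known for activation through sites of another general regulatory factor, Abf1. Most of the proteins are encoded by a pair of paralogs left from the whole-genome duplication.

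The lists held 109 and 564 peaks in 14 d repeats 1 and 2, and 87 and 480 peaks in 16 h repeats 1 and 2. Depth was read relative to other lists from the pileup of the genome background, solved from the peak values, which was 1.71 and 11.7 fragments in 14 d repeats 1 and 2 and 0.414 and 8.87 in 16 h repeats 1 and 2. By this measure repeat 2 exceeded repeat 1 by 6.88 times at 14 d and by 21.4 times at 16 h, whereas 14 d was 4.12 times deeper than 16 h in repeat 1 and 1.32 times in repeat 2. A missing peak in a repeat 1 list is therefore weak evidence of missing binding.

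In the deep repeat 2 lists, nearly all large subunit genes had a Rap1 peak in the promoter at both times. A peak was called at 73 of 81 genes in 14 d repeat 2 (90.1%, exact 95% binomial interval 81.5 to 95.6%) and at 71 of 81 in 16 h repeat 2 (87.7%, 78.5 to 93.9%). Over all 6002 genes the share was 11.4% in 14 d repeat 2 and 9.18% in 16 h repeat 2. The intervals cover counting error only. In the shallow lists, 7 of 81 genes had a peak in 14 d repeat 1 (8.64%, 3.55 to 17.0%) and 14 of 81 in 16 h repeat 1 (17.3%, 9.78 to 27.3%), against 1.68% and 1.2% of all genes. The small subunit genes, the other part of the same regulon, had a peak at 51 and 50 of 56 genes in 14 d and 16 h repeat 2. Genes for the large subunit of the mitochondrial ribosome, which is built from other proteins, had a peak at 2 of 34 genes in each of these lists. No 2 large subunit genes shared a peak, so that the 73 genes at 14 d were counted on 73 separate peaks, 12.9% of the nuclear peaks of that list, and the 71 genes at 16 h on 71 peaks, 14.8% of theirs.

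**Figure D1:**
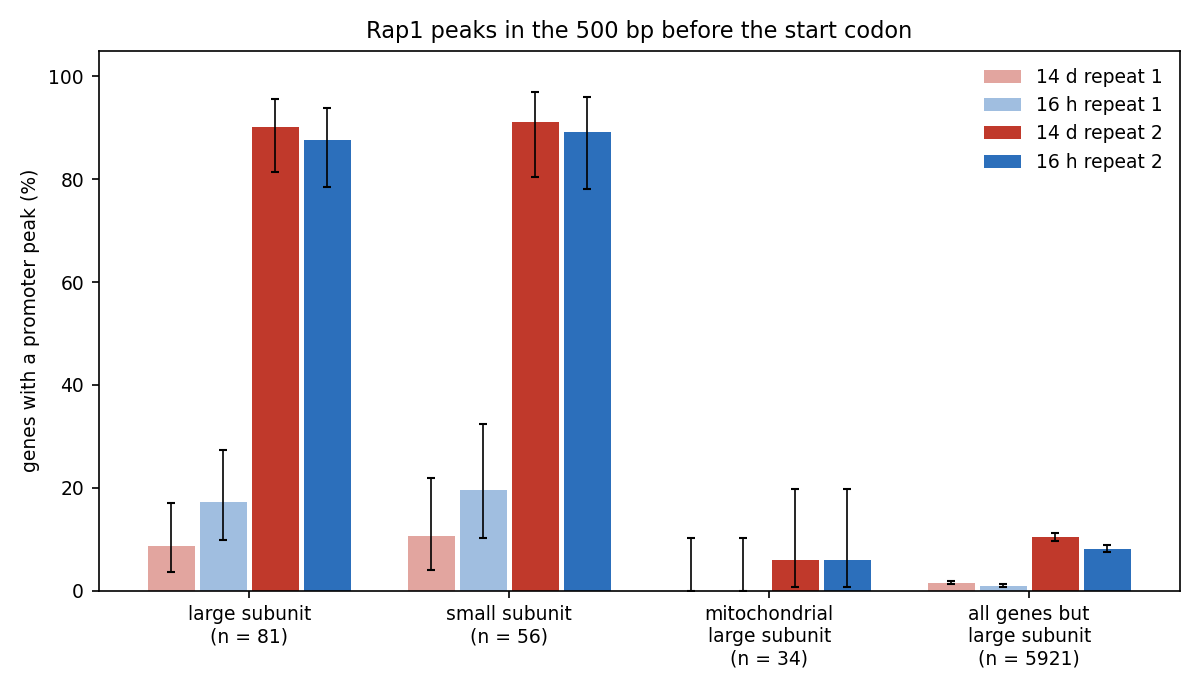
Share of genes (%) with a Rap1 peak overlapping the 500 bp before the start codon, for 4 groups of genes in the 4 libraries, with exact 95% binomial intervals as error bars. Large subunit genes reach 90.1% in 14 d repeat 2 and 87.7% in 16 h repeat 2, whereas genes outside the group stay at 10.4% and 8.11%, and both repeat 1 lists are far lower.

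The study asked whether Rap1 changes its place in the genome with chronological age. The share of large subunit genes with a promoter peak was 49.4% ± 57.6 (SD, n = 2) at 14 d and 52.5% ± 49.8 (SD, n = 2) at 16 h. The difference of -3.09 percentage points was far below both SDs (two-sided exact permutation test, p = 1), and 2 libraries against 2 cannot give p under 0.333. Within repeat 1 the difference was -8.64 points and within repeat 2 it was 2.47 points. With a −log10 q of at least 5 the number in 16 h repeat 1 fell to 6 of 81 genes. This equals the 6 of 81 genes left in 14 d repeat 1. As 14 d was 4.12 times deeper in repeat 1, 1 cutoff of q does not stand for the same fold enrichment in both lists. What the difference in repeat 1 rested on was not tested. Each of the 71 genes marked in 16 h repeat 2 was marked in 14 d repeat 2 as well. So was each of the 50 small subunit genes and each of the 2 mitochondrial large subunit genes marked in 16 h repeat 2. Of the 5921 other genes, 480 had a peak in 16 h repeat 2 and 429 of those (89.4%) in 14 d repeat 2. Of all genes, 8.33% had a promoter peak in both repeat 2 lists.

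The 2 genes with a promoter peak at 14 d alone in repeat 2 were RPL24B and RPL15B. At RPL24B, which encodes a protein that joins the subunit late, in the cytoplasm, the 14 d peak at chromosome VII 788268 to 788798 reached the promoter window, which ends at 788279, by 12 bp. The 16 h list had a peak at the same place, 788312 to 788712, just beyond the window. The summits lay 754 bp (14 d) and 748 bp (16 h) before the start codon, with a fold enrichment of 28.4 and 21.9, and the start codon of GPC1 was nearer. The absence at 16 h is thus set by the edge of the window. RPL15B had a weak peak in 14 d repeat 2 at chromosome XIII 510635 to 511033, with a fold enrichment of 5.73, a summit pileup of 72 fragments and the summit 510 bp before the start codon, inside the open reading frame YMR122C. The peak also overlapped the promoter of NCW1, and the RPL15B start codon was not the nearest to the summit. In 16 h repeat 2 the nearest summit was 9378 bp away from the RPL15B start codon.

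Promoter peaks were absent from all 4 lists at 8 genes, which were RPL3, RPL4A, RPL4B, RPL15A, RPL24A, RPL32, RPP1A and RPP2B. Among them RPL3 and the RPL4 pair encode conserved proteins that reach toward the peptidyl transferase centre, and RPP1A and RPP2B encode acidic proteins of the stalk, where translation factors bind. Windows of 1000 bp, used as a check, placed a peak before 2 of the 8 in both repeat 2 lists. At RPL24A the peak was the one of the neighbouring gene RPL30, with the summit 800 bp before the RPL24A start codon at 14 d and 820 bp at 16 h and a fold enrichment of 23.2 and 20.9. Before RPL32 the summit lay at 792 bp (14 d) and 803 bp (16 h), with a fold enrichment of 22.5 and 28.2, nearer to the start codon of ROX3. The other 6 genes had no peak within 1000 bp.

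These 6 genes were often far from any peak. The nearest summit of 14 d repeat 2 lay 32364 bp from the RPL4A start codon, 20254 bp from RPP2B, 15144 bp from RPL15A, 12653 bp from RPL3 and 6696 bp from RPL4B. The distances in 16 h repeat 2 were 32376 bp for RPL4A, 20253 bp for RPP2B, 15137 bp for RPL15A, 2269 bp for RPL3 and 19296 bp for RPL4B. For RPP1A the nearest summit was that of the neighbouring gene RPL13A, 1918 bp away at 14 d and 1919 bp at 16 h, on the side of the coding sequence. With the window of 1000 bp, 75 of 81 genes had a peak in 14 d repeat 2 and 74 in 16 h repeat 2, against 13.7% and 11.6% of all genes.

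The strength of the peaks was read as the fold enrichment, the summit pileup over the local background, each with 1 added, which moves with depth and is compared within a list or within a repeat. In 14 d repeat 2 the median over the 73 genes was 16.6 (range 3.38 to 52.2), against 8.01 at the 613 other genes with a promoter peak. In 16 h repeat 2 it was 13.9 over 71 genes (3.95 to 42.7), against 7.30 at 480 other genes. The median large subunit gene stood at the 73.4th percentile of the nuclear peaks in 14 d repeat 2 and at the 70.2nd in 16 h repeat 2. Small subunit genes stood higher in both lists. Their median fold enrichment was 20.7 at 14 d and 16.4 at 16 h, and their median percentile 79.5 and 75.3. In the shallow lists, which held few of these genes, those present mostly stood low. The median percentile was 16.8 over 7 genes in 14 d repeat 1 and 19.0 over 14 genes in 16 h repeat 1, with 0 of 7 and 3 of 14 genes in the upper part of the list, above its median peak. The mean of this percentile was 45.1 ± 40.0 (SD, n = 2) at 14 d and 44.6 ± 36.2 (SD, n = 2) at 16 h, and the difference of 0.495 points was small beside the SDs (exact permutation test, two-sided, p = 1).

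**Figure D2:**
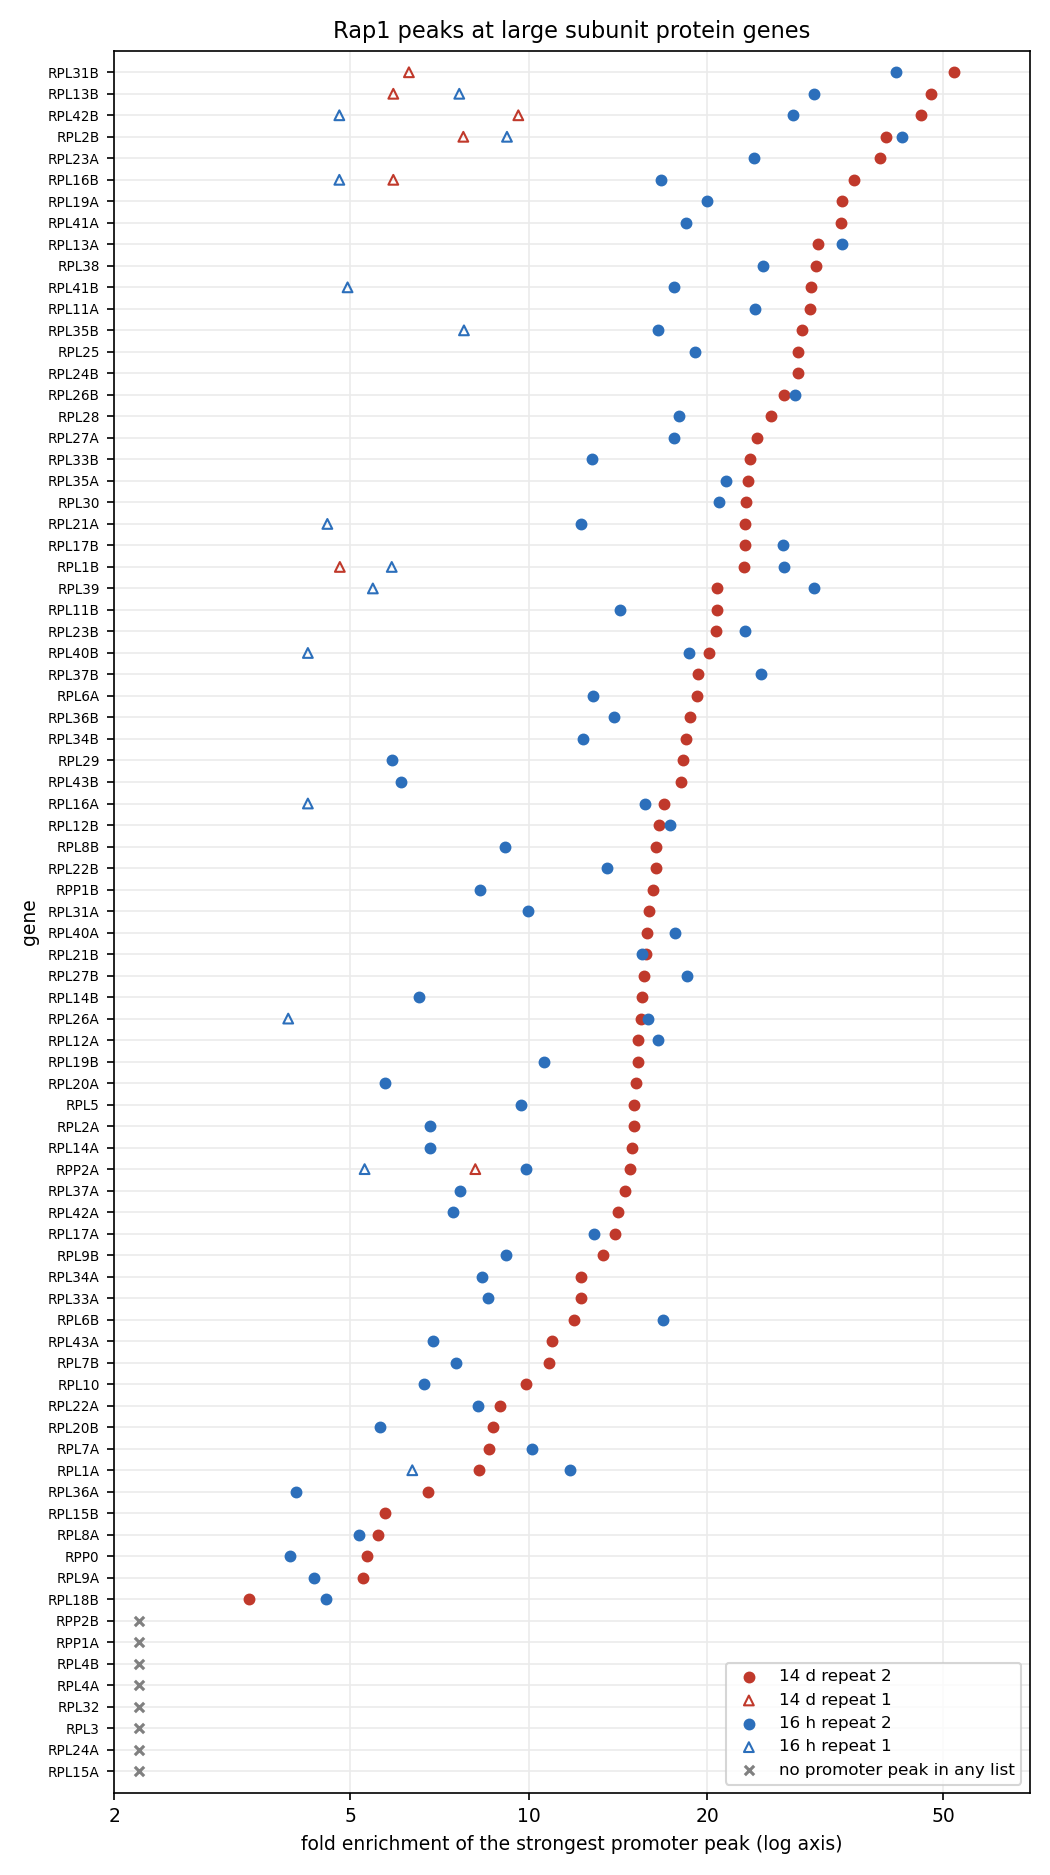
Fold enrichment of the strongest promoter peak (log axis) at 80 of the 81 large subunit genes, ordered by 14 d repeat 2, with repeat 2 as filled circles and repeat 1 as open triangles, red for 14 d and blue for 16 h. Values of 14 d repeat 2 run from 3.38 (RPL18B) to 52.2 (RPL31B), and crosses at the left edge, which stand for no value, mark the 8 genes with no promoter peak in any list.

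The strongest peaks of 14 d repeat 2 lay at RPL31B, RPL13B, RPL42B, RPL2B and RPL23A. RPL31B, whose protein lies at the rim of the exit tunnel for the nascent chain, had a fold enrichment of 6.28 and 52.2 in 14 d repeats 1 and 2, no promoter peak in 16 h repeat 1 and 41.6 in 16 h repeat 2. Its summit lay 551 bp (14 d) and 529 bp (16 h) before the start codon, within the open reading frame YLR406C-A, and the peak also overlapped the promoter of GAG1. RPL13B had 5.91 and 47.6 at 14 d against 7.64 and 30.3 at 16 h. Its repeat 2 peaks also overlapped the promoter of the small subunit gene RPS16A, and the start codon of that gene was nearer to the summit. RPL2B, which encodes a protein at the peptidyl transferase centre, had 7.76 and 40.1 at 14 d against 9.19 and 42.7 at 16 h, and no other gene had its promoter under the peak. RPL23A was listed in repeat 2 alone, with 39.1 at 14 d and 24.0 at 16 h. RPL42B had 9.61 and 45.9 at 14 d against 4.79 and 27.9 at 16 h. Of these 5 genes, RPL2B alone was higher at 16 h in repeat 2.

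The weakest promoter peaks of 14 d repeat 2 lay at RPL18B, RPL9A, RPP0, RPL8A and RPL15B. RPL18B had a fold enrichment of 3.38 at 14 d and 4.56 at 16 h, from summit pileups of 42 and 44 fragments. RPP0, which encodes the protein that anchors the stalk, had 5.34 at 14 d and 3.95 at 16 h. RPL9A had 5.26 and 4.34, and RPL8A had 5.58 and 5.17. The same 4 genes were thus near the bottom of the group at both times, and none of them had a peak in a repeat 1 list.

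Only 6 genes had a promoter peak in all 4 lists, 7.41% of the group against 0.583% of all genes. These were RPL1B, RPL2B, RPL13B, RPL16B, RPL42B and RPP2A. RPL1B had a fold enrichment of 4.80 and 23.1 in 14 d repeats 1 and 2 and of 5.88 and 27.0 in 16 h repeats 1 and 2. RPL16B had 5.91 and 35.3 at 14 d and 4.79 and 16.7 at 16 h. RPP2A, whose peak also overlapped the promoter of RPS15, had 8.13 and 14.8 at 14 d and 5.29 and 9.88 at 16 h. By the repeat 1 values, 14 d was higher than 16 h at 3 of these 6 genes, against 24 of the 29 genes outside the group with a promoter peak in both repeat 1 lists. Of the other genes, RPL31B was listed in 14 d repeat 1 and not in 16 h repeat 1, and 8 genes the other way round, among them RPL39, RPL35B, RPL41B and RPL1A.

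The genes listed in repeat 1 tended to be strong in repeat 2 without being simply its strongest. At 14 d, the 7 genes listed in repeat 1 had a median fold enrichment of 40.1 in repeat 2 (14.8 to 52.2), and the other 66 genes had 16.3 (3.38 to 39.1). At 16 h, the 14 listed genes had 17.1 (9.88 to 42.7) and the other 57 genes 12.8 (3.95 to 41.6). The ranges overlapped at both times. RPL23A, with 39.1 at 14 d and 24.0 at 16 h, was in neither repeat 1 list, whereas RPP2A, with 14.8 and 9.88, was in both.

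By the place of the protein, all genes assigned to the exit tunnel and the 5S particle had a peak in both repeat 2 lists. Of the whole group, 90.1% had a peak in 14 d repeat 2 and 87.7% in 16 h repeat 2. In repeat 1, peaks were listed at 1 (14 d) and 3 (16 h) of the 12 exit tunnel genes. No gene of the 5S particle had one there. All 12 exit tunnel genes, which include RPL25 for the docking site of factors that meet the nascent chain, and RPL39 for a small protein of the tunnel wall, had a peak in both repeat 2 lists, with a median fold enrichment of 23.3 (14.0 to 52.2) at 14 d and 19.5 (9.98 to 41.6) at 16 h. All 3 genes of the 5S particle, RPL5, RPL11A and RPL11B, had a peak in both, with medians of 20.8 and 14.3. Of the 7 late-joining genes, 6 had a peak in 14 d repeat 2 and 5 in 16 h repeat 2, with medians of 19.2 and 17.6. RPL24A was the gene without one at both times. Of the 7 stalk genes, 5 had a peak at both times, with medians of 15.3 and 9.88, and RPL12A and RPL12B, for the protein at the stalk base, were similar to each other, with 15.3 and 16.6 at 14 d and 16.5 and 17.3 at 16 h. Of the 6 genes of the peptidyl transferase centre, 3 had a peak at both times, which were RPL2A, RPL2B and RPL10. The unmarked RPL4A and RPL4B were counted here, although their protein also lines the exit tunnel, and with them the tunnel group would not be complete. The 46 remaining genes had a peak at 44 (14 d) and 43 (16 h), with medians of 16.4 and 12.8. The groups were not tested against each other.

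Summits lay at nearly the same place before a given start codon at both times. The median distance from summit to start codon was 331 bp (146 to 754 bp, interquartile range 257 to 391 bp) in 14 d repeat 2 and 328 bp (167 to 633 bp, interquartile range 251.5 to 388.5 bp) in 16 h repeat 2. At the 71 genes with a peak in both, the summits of 14 d and 16 h differed by a median of 5 bp. The difference was at most 10 bp at 47 genes, at most 25 bp at 66 genes and at most 33 bp at any of them. At the 429 other genes with a promoter peak in both lists the median was 7 bp, with 363 at most 25 bp apart. At 4 genes, RPL2B, RPL7A, RPL16B and RPL43B, the summits of the deep lists fell on the same base, and at RPL2B those of all 4 lists lay between 398 and 412 bp before the start codon. Summits of the shallow lists were less steady. At the 6 genes with a peak in both repeat 1 lists the median difference between times was 67 bp, up to 168 bp at RPL13B.

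**Figure D3:**
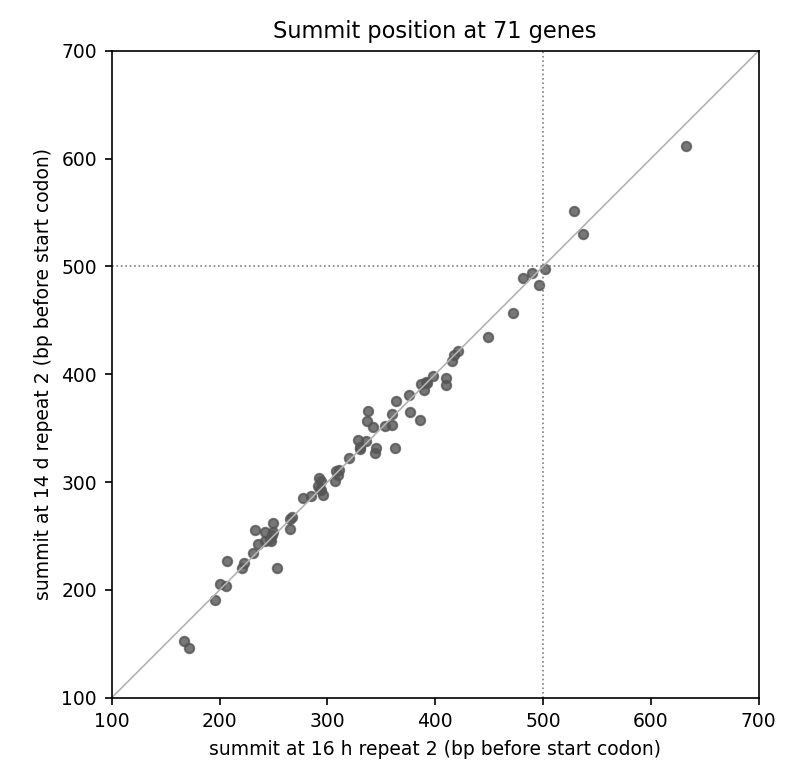
Distance from peak summit to start codon (bp) in 14 d repeat 2 (vertical axis) and 16 h repeat 2 (horizontal axis) at the 71 large subunit genes with a promoter peak in both lists. Points follow the grey line of equal distance with at most 33 bp between times, and dotted lines mark the edge of the 500 bp window.

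Over libraries, the median distance was 352 bp ± 29.7 (SD, n = 2) at 14 d and 343 bp ± 21.2 (SD, n = 2) at 16 h. The 9 bp between times was less than either SD (exact permutation test, two-sided, p = 0.667). It was 15 bp in repeat 1, over different genes in the 2 lists, and 3 bp in repeat 2. Only 5 of 73 summits at 14 d and 4 of 71 at 16 h lay beyond 500 bp, at RPL15B, RPL24B, RPL29, RPL17B and RPL31B at 14 d and at RPL29, RPL17B, RPL31B and RPL12A at 16 h. RPL29 had the most distant summit of the genes with a peak at both times, at 612 bp (14 d) and 633 bp (16 h). RPL36A and RPL1A had the nearest, at 146 and 153 bp at 14 d and 172 and 167 bp at 16 h.

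Many of the peaks lay between a large subunit gene and a divergent or close neighbour. In 14 d repeat 2, 35 of the 73 peaks also overlapped the promoter window of another protein-coding gene and in 16 h repeat 2 33 of 71 did. Sharing was common outside the group too. There 613 genes rested on 444 peaks in 14 d repeat 2 and 480 genes on 361 peaks in 16 h repeat 2. The share of those peaks that overlapped more than 1 promoter window was not counted. The start codon of the large subunit gene was the nearest one to the summit at 51 genes in each list. At others, such as RPL19A beside AAC3 and RPL11A beside PRE2, the peak cannot be assigned to 1 of the neighbours from its position. The neighbour was a small subunit gene at RPL13A (RPS16B), RPL13B (RPS16A), RPL39 (RPS22A) and RPP2A (RPS15) in 14 d repeat 2. The median width of the peaks at large subunit genes was 483 bp in 14 d repeat 2 and 356 bp in 16 h repeat 2, against 459 bp and 328 bp over all nuclear peaks of the same lists.

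In the repeat 2 lists most pairs had a peak at both paralogs. Of 35 pairs, 30 (85.7%) had a peak at both genes in 14 d repeat 2 and 30 in 16 h repeat 2. Of all large subunit genes, 90.1% and 87.7% had a peak in these lists, and agreement of paralogs beyond those shares was not tested. At 14 d, 4 pairs had a peak at 1 gene only, RPL15 (B), RPL24 (B), RPP1 (B) and RPP2 (A), and the RPL4 pair had none. At 16 h, RPP1 (B) and RPP2 (A) had 1 only, and the RPL4, RPL15 and RPL24 pairs had none. Both stalk pairs were thus marked at 1 gene at both times, RPP1B with a fold enrichment of 16.2 (14 d) and 8.27 (16 h), and RPP2A as given above. In the shallow lists 0 and 2 pairs had a peak at both genes at 14 d and 16 h, those at 16 h being RPL1 and RPL16. The share of pairs with both was 42.9% ± 60.6 (SD, n = 2) at 14 d and 45.7% ± 56.6 (SD, n = 2) at 16 h, a difference of -2.86 points (exact permutation test, two-sided, p = 1), with -5.71 points in repeat 1 and 0 in repeat 2.

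Within the 30 pairs with 2 peaks at each time in repeat 2, the same paralog was the stronger at both times in 22, the B gene in 16 of them and the A gene in 6. In 7 pairs the genes were over 2-fold apart in the same direction at both times. In 6 of them the B gene was stronger. There the log2 difference A minus B was -1.71 and -2.06 at 14 d and 16 h for RPL31, -1.70 and -1.90 for RPL42, -1.49 and -1.20 for RPL1, -1.47 and -1.78 for RPL36, -1.41 and -2.64 for RPL2 and -1.34 and -1.08 for RPL9. In 8 pairs the stronger gene was not the same at the 2 times. An example is RPL6, where A minus B was 0.69 at 14 d and -0.39 at 16 h. Each value comes from 1 library, so that the differences within pairs have no replicate error of their own.

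**Figure D4:**
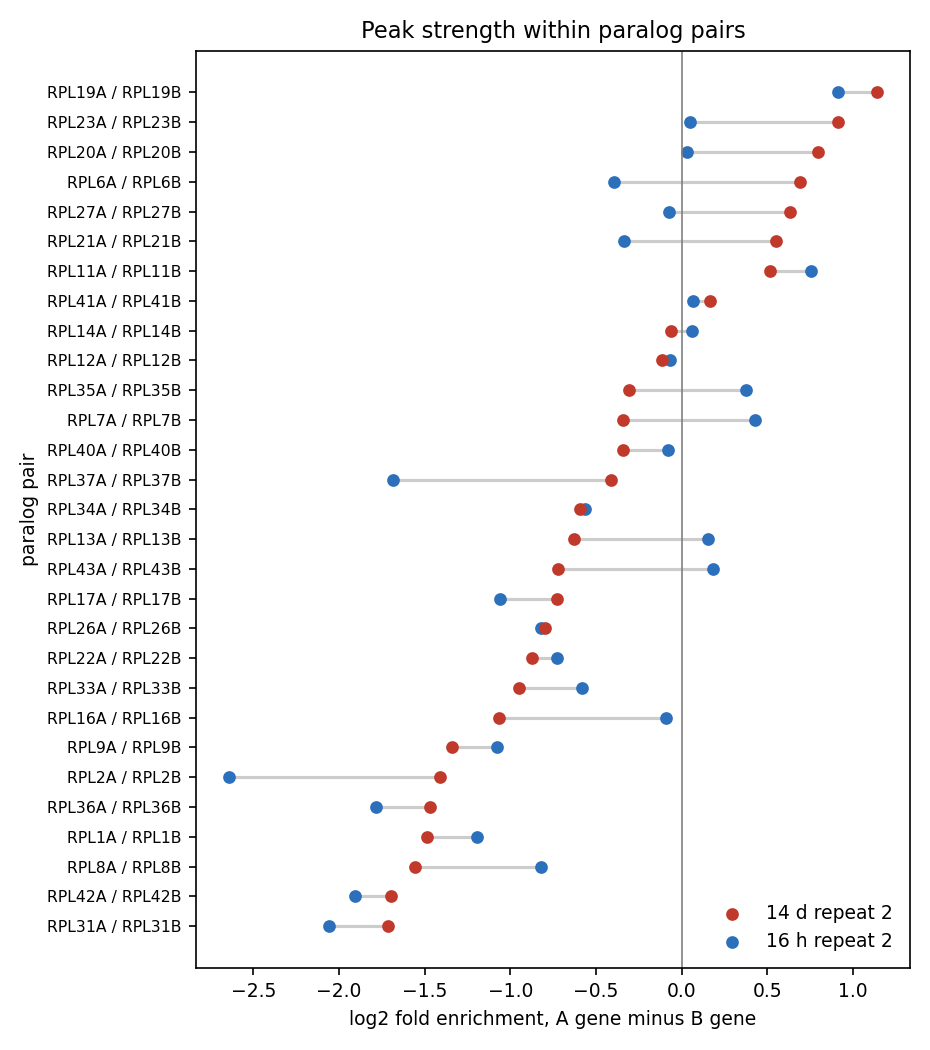
Log2 fold enrichment of the A gene minus the B gene (horizontal axis) for 29 of the 30 paralog pairs with a promoter peak at both genes in 14 d repeat 2 (red) and 16 h repeat 2 (blue), ordered by the 14 d value. Most pairs stay on 1 side of zero at both times, with RPL31 at -1.71 and -2.06 far to the left.

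The positions of the peaks were less alike between paralogs than between times. The distance from summit to start codon differed between the A and B genes of a pair by a median of 78.5 bp at 14 d and 69.5 bp at 16 h, against the 5 bp between times at the same gene. It differed by more than 100 bp in 11 pairs at each time and by at most 25 bp in 6 pairs at 14 d and 4 at 16 h. In the RPL12 pair the summits lay at 498 bp (A) and 494 bp (B) at 14 d and at 502 bp and 490 bp at 16 h. In the RPL14 pair, of nearly equal fold enrichment (14.9 and 15.6 at 14 d, 6.82 and 6.53 at 16 h), they lay 187 bp apart at 14 d and 191 bp apart at 16 h.

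In repeat 2, where 71 genes could be compared, most large subunit genes had a higher fold enrichment at 14 d, as did most other genes. It was higher at 14 d at 53 of 71 genes (74.6%), and 71.6% of all 500 genes with a promoter peak in both lists were higher. The median log2 difference was 0.52 at the large subunit genes (-0.54 to 1.63), 0.22 at 50 small subunit genes and 0.30 at the 429 genes outside the group. The order of the large subunit genes and the genes outside the group was the opposite by summit pileup (0.09 and 0.14, on the scale described with that measure) and in repeat 1, where the median log2 fold difference was 0.029 at 6 large subunit genes and 1.12 at 29 genes outside the group. Ranks were largely kept, with Spearman's rho = 0.819 across the 71 genes between 14 d and 16 h, which are single libraries and whose genes are not independent replicates. Spearman's rho was 0.870 at the 429 genes outside the group and 0.794 at the 50 small subunit genes. More than 2-fold higher at 14 d were 7 genes (10.2% of all genes compared were), and more than 2-fold lower was none (0.4% of all).

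The genes with the largest difference were RPL29 with a fold enrichment of 18.2 at 14 d and 5.88 at 16 h, RPL43B with 18.1 and 6.08, RPL20A with 15.2 and 5.73, RPL14B with 15.6 and 6.53, RPL2A with 15.1 and 6.82, RPL14A with 14.9 and 6.82, and RPL16B with 35.3 and 16.7. RPL29 encodes a small protein that joins the subunit late. Its peak reached the promoter window by 112 bp at 14 d and 49 bp at 16 h, with the summit outside it. The peak also overlapped the promoter of MIN10, and the RPL29 start codon was not the nearest to the summit. At RPL20A, too, another start codon was nearer. Of these 7 genes RPL16B alone was also listed in both repeat 1 libraries, with 5.91 at 14 d and 4.79 at 16 h. The lowest differences were at RPL39 (20.8 at 14 d, 30.3 at 16 h), RPL1A (8.25 and 11.8) and RPL6B (11.9 and 16.9). Whether any of these single genes differs beyond the error between cultures could not be tested.

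The size of the difference depended on the measure. As log2 summit pileup over the genome background, which leaves out the local background, the median difference in repeat 2 was 0.09, with 42 of the 71 genes higher at 14 d, against 0.14 and 260 of 429 at the genes outside the group. The share of large subunit genes was thus close to that of other genes. Both measures were higher at 14 d at 42 genes and lower at 18. At 11 genes the fold was higher and the pileup over the genome background lower. By pileup over the genome background, 2 genes remained more than 2-fold higher at 14 d. RPL43B had 416 fragments at the summit at 14 d and 89 at 16 h, a log2 difference of 1.82 after division by the genome background, and RPL29 had 256 and 80 fragments, a log2 difference of 1.27. In repeat 1 the pileup over the genome background was lower at 14 d at all 6 genes listed at both times. The median log2 difference was -1.22 there. Outside the group this ratio was lower at 17 of 29 genes, with a median log2 difference of -0.40. Before division by the background, each of the 6 genes had more fragments at the summit at 14 d, such as 20 against 12 at RPL2B. The smallest pileup of any peak in the repeat 1 lists was 10 fragments at 14 d and 5 at 16 h. Over genome backgrounds of 1.71 and 0.414, the lowest listed value was thus higher at 16 h. The effect of this on the difference was not tested.

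**Figure D5:**
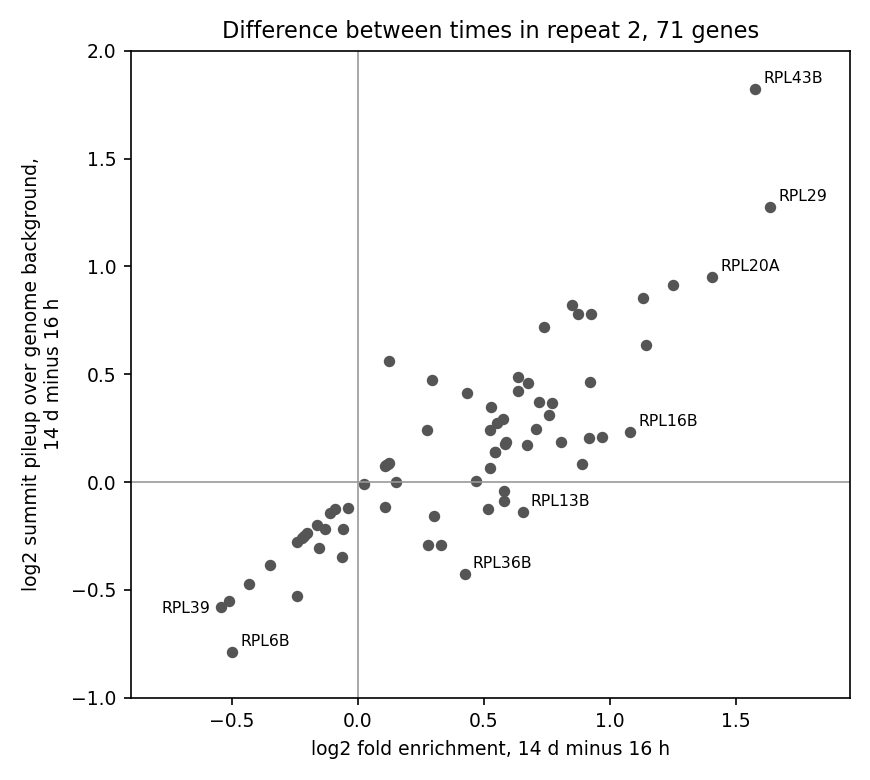
Difference between 14 d and 16 h in repeat 2 at 71 large subunit genes, as log2 fold enrichment (horizontal axis) and as log2 summit pileup over the genome background (vertical axis). Of the points, 53 lie right of zero and 42 above it, with RPL43B (1.57 and 1.82) and RPL29 (1.63 and 1.27) at the upper right.

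Over libraries, the median log2 fold enrichment at the genes with a peak in both lists of a repeat was 3.41 ± 0.91 (SD, n = 2) at 14 d and 3.14 ± 0.94 (SD, n = 2) at 16 h. The difference of 0.26 was smaller than both SDs (two-sided exact permutation test, p = 0.667), with 0.28 in repeat 1 and 0.25 in repeat 2. These are differences between medians, and the medians of the differences gene by gene were 0.029 in repeat 1 and 0.52 in repeat 2. As summit pileup over the genome background it was -0.58 (exact permutation test, p = 0.333).

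The genes of 9 regulators of ribosomal protein transcription were listed beside the large subunit genes. None of RAP1, FHL1, IFH1, SFP1, CRF1, HMO1, ABF1, REB1 and TBF1 had a promoter peak in either 14 d list. RAP1 itself had one in 16 h repeat 2, with a fold enrichment of 11.3, and the other 8 had none in either 16 h list. Of all genes, 11.4% had a promoter peak in 14 d repeat 2 and 9.18% in 16 h repeat 2, so few were to be found among 9. The counts also depended on the window. Within 1000 bp, 2 of the 9 had a peak in 14 d repeat 2 and 3 in 16 h repeat 2. The shares of all genes were then 13.7% and 11.6%. A difference between times at these genes was not tested.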

How the data were processed

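Rap1 ChIP-seq was done at 14 d and 16 h with 2 biological repeats each. The submitters' processing notes name Trim Galore, Bowtie2, MACS2 and build R64, and the methods describe paired-end reads and peaks called relative to the input of the culture. Versions and settings are not given in the sources used here. The deposited fold enrichment is a ratio, summit pileup plus 1 over local background plus 1. Other columns deposited by the authors hold −log10 p, −log10 q and a score of 10 times the −log10 q. Peak names of 14 d repeat 2 call it a merge, so runs may have been pooled there.

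Gene positions came from the RefSeq table of R64 (6477 rows), with strand from the systematic name. A promoter peak overlapped the 500 bp before the start codon by at least 1 bp. The peak of highest fold stood for a gene. Mitochondrial peaks (14 and 3 in the repeat 1 lists of 14 d and 16 h) were left out. Pileup and background were solved from fold and −log10 p (relative tolerance 0.0001, met by 100% of peaks), assuming no scaling of the ChIP pileup, and the lowest background of a list was taken as its genome background. Matching and solving were tested on simulated data. Libraries were compared with scipy 1.17.1 (exact permutation test), figures drawn with matplotlib 3.10.9.

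Members, lists and named genes (all 4 lists, the 5 highest and 5 lowest, no peak, unequal pairs, functional groups) were chosen with earlier results of these data known. The 7 genes over 2-fold apart and the neighbours named were chosen after their values were seen. Values of 1 gene, and of the difference within its pair, are not reported here or shown in the plots that name genes, while counts, ranges and medians include them. A motif search was planned and not run, as no sequence was used here. Alternatives were the 84 strongest peaks per list, a window of 1000 bp, a minimum −log10 q of 5, summit-based assignment, leaving out each library and a block by repeat number.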

Additional observations from a re-analysis of the deposited data

How the results depend on the processing

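No difference between times reached the threshold in any setting, since 2 libraries against 2 cannot, so these settings bear on direction alone. With a −log10 q of at least 5 the share of genes with a peak changed sign (1.23 points), as did the log2 fold enrichment (-0.029) and the fold percentile (-4.16), and 16 h repeat 1 kept 6 genes. The percentile also changed sign with the 1000 bp window (-0.317) and with the top 84 peaks of each list (-6.55), which left 18 genes in each repeat 2 list because fewer peaks were used. The summit distance changed sign with peaks nearest to the start codon of the gene itself (-5.75 bp) and at genes in both lists of a repeat (-19.25 bp). As summit pileup over the genome background the log2 difference was -0.58. The cause of these changes was not tested. Leaving out 1 library gave -43.8 to 37.7 points for the share of genes, -12 to 30 bp for the distance, -0.40 to 0.93 for log2 fold enrichment, -27.8 to 28.8 for the percentile and -45.7 to 40 points for pairs, since the lone library of a time is then deep or shallow. A replicate block by repeat number cannot move these differences (-3.09 points, 9 bp, 0.26, 0.495 and -2.86 points), with a smallest p of 0.5. Same-numbered libraries deviated together at the 6 genes in all 4 lists (Pearson r = 0.717), which 2 pairs do not make a pairing. Absence from a repeat 1 list says little at that depth.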
